A study of Rattus norvegicus with 32 samples.

Results

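Collagens, laminins and integrins build and bind the extracellular matrix. On the rat CodeLink array used here, 97 of 33849 probes belonged to this group. They were chosen by gene symbol: every collagen chain, laminin chain, integrin alpha and integrin beta subunit that the platform annotation names as the only gene of a probe, except Itgam, together with the matrix genes Pcolce, Fn1, Tnc and Sparc. The 97 probes represent 66 of the 12573 genes named by a probe, of which 34 are collagens, 8 laminins, 13 integrin alpha and 7 integrin beta subunits.

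The RNA came from CA3 pyramidal neurons of the adult Sprague-Dawley rat hippocampus, collected by laser capture. Only neurons negative for Fluoro-Jade, a stain of degenerating neurons, were taken. The 4 treatments were TBI+MT (fluid percussion traumatic brain injury with metyrapone at 100 mg/kg, an inhibitor of glucocorticoid synthesis), TBI+CB (the same injury with carbenoxolone at 30 mg/kg, an inhibitor of 11-beta-hydroxysteroid dehydrogenase), TBI (injury with saline in place of a drug) and SHAM (surgery without injury). Each was sampled at 4 h and at 24 h, and each of the 8 groups had 2 pools of RNA, every pool being hybridised to 2 arrays. Each pool combined several rats (3 to 6 by the sample labels), so a pool is the unit of replication and n = 2 pools per group throughout. The labels give drug treatment 90 min before injury and mark the 4 h SHAM rats as untreated, whereas the methods describe a shorter interval and saline for the sham rats. All groups, SHAM included, went through the same capture and 2 rounds of RNA amplification.

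Collagens assemble from 3 chains into fibrils (types I, II, III, V and XI), networks (type IV, in basement membranes) or smaller structures. Procollagen is trimmed outside the cell, and Pcolce encodes an enhancer of the protease that removes its C-terminal propeptide. Laminins are heterotrimers of an alpha, a beta and a gamma chain that polymerise in basement membranes, which in the brain surround vessels and line the pia. Integrins are alpha-beta dimers that bind these proteins. Fibronectin (Fn1), tenascin-C (Tnc) and SPARC are glycoproteins that modulate adhesion, and Tnc is known to be made by reactive astrocytes around brain wounds.

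Of the 66 genes, 36 had no probe that was above background throughout a group, though some of these were above it on single arrays. Probes were retained where all 4 arrays of some group read above local background. That left 31 of the 97 probes, representing 30 genes, against 17635 of 33849 probes in all. The kept probes were 14 of 47 for collagens, 6 of 12 for laminins, 5 of 18 for integrin alpha, 1 of 11 for integrin beta and 5 of 9 for Pcolce, Fn1, Tnc and Sparc. A probe passes this filter through the group in which it is brightest. Of the 97 probes, 25 were above background on none of the 32 arrays and 11 on all 32.

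**Figure D1:**
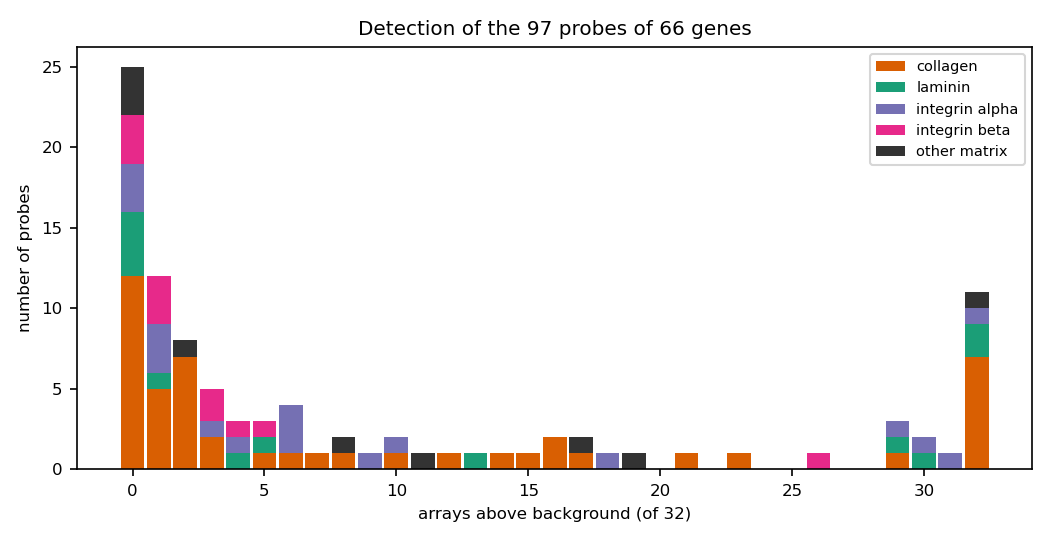
Number of probes (vertical axis) by the number of arrays, of 32, on which they were above background (horizontal axis), stacked by gene class. The distribution has 2 ends, with 25 probes at 0 arrays and 11 at 32.

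The 11 probes above background on every array were those of Col1a1, Col1a2, Col4a1, Col5a2, Col6a1, Col9a2, Col14a1, Itga7, Lamb3, Lamc1 and Sparc. The 36 genes without a kept probe included both probes of Itgb1, the beta subunit shared by most laminin and collagen receptors (above background on 3 and 0 arrays), and both probes of Lamb2 (0 arrays each). Col4a2, whose chain pairs with that of Col4a1 in vessel basement membranes, was above background on 2 arrays.

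Probes of the same gene often disagreed. Of 18 genes with several probes and at least 1 kept, only Pcolce had all of its probes kept. Col1a1 reached 65.1 times the array median on its kept probe and at most 0.732 on the other. For Sparc the highest levels were 69.2 and 0.831, for Itga7 63.0 and 0.856, for Col4a1 39.4 and 0.658, and for Tnc 8.03 and 0.988. The levels of these genes therefore rest on 1 probe each, and which transcript or sequence that probe binds was not tested. Itga11 had a second probe that was above background on 10 arrays and reached 14.3, higher than the 4.58 of its kept probe, and Col5a1 had a second probe above background on 17 arrays. A level is given below as a multiple of the array median and is compared only within 1 probe.

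Over all kept probes, the log2 values of duplicate arrays correlated at Pearson r between 0.900 and 0.997, and those of the 2 pools of a group between 0.733 and 0.943. The array median was between 9.53 and 62.4 intensity units by pool, and in the dimmest pools, TBI+MT 24 h pool 1 and TBI+CB 24 h pool 2, 27.7% and 30.2% of probes were above background. Of 5 pyramidal neuron markers 3 were kept, namely Slc17a7, Grik4 and Camk2a, whereas Neurod2 and Nrgn were not. Slc17a7 and Grik4 were detected in every pool (5.60 to 31.0 and 73.8 to 251 times the median), but so were RNAs of astrocytes, microglia, oligodendrocytes and endothelium. Of the 7 fibroblast and meningeal markers only Aldh1a2 was kept, and Dcn, Lum and Pdgfra were not. In pooled captured RNA, fewer cells of a type and less RNA per cell cannot be told apart. The slide numbers fall into 3 runs: SHAM 4 h and TBI 4 h pool 1 shared one, TBI+MT 24 h and TBI+CB 24 h another, and the other 9 pools the remaining one.

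The values that follow turn on Pcolce, Lama1 and Tnc, so the starts of these genes are shown first. They are 300 bases each from RefSeq (build GRCr8), 5′ to 3′ on the gene's strand, with 250 bases before the annotated transcript start and 50 after it. Pcolce lies at chr12:24720722-24721021 (plus strand), Lama1 at chr9:115139298-115139597 (plus strand) and Tnc at chr5:82476082-82476381 (minus strand). Capitals mark exact matches, on either strand, to 3 motifs, which are TATAAA (the TATA box), CCAAT (the CCAAT box) and GGGCGG (the GC box), none of which overlap here.
Pcolce: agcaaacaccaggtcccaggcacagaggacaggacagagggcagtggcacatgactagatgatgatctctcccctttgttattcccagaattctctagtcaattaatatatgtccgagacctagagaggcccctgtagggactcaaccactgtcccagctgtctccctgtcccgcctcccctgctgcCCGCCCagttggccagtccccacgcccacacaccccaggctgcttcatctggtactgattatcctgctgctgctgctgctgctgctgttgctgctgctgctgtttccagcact
Lama1: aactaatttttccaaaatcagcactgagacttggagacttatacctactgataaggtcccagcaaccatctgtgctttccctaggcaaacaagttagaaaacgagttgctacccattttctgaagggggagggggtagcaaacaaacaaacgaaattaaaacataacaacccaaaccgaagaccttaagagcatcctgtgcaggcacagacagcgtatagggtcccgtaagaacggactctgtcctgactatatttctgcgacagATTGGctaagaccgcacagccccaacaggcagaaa
Tnc: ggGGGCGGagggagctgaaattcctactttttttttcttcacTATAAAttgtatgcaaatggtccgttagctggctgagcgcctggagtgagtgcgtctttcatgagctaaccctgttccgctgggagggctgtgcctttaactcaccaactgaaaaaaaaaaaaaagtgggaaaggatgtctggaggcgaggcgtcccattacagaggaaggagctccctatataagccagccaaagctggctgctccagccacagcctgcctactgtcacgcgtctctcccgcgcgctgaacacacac
Counted from the transcript start, Pcolce matches GGGCGG on the other strand at bases -63 to -58, and Lama1 matches CCAAT on the other strand at 15 to 19. Tnc matches GGGCGG at -248 to -243 and TATAAA at -208 to -203. Only exact letters were searched, so other forms of these boxes are not marked. Pcolce and Lama1, each the nearest to the other in the values below, shared none of the 3 motifs. Of 53 promoters of the member genes in the table, 56.6% held GGGCGG, 17.0% CCAAT and 9.43% TATAAA, against 33.1%, 37.5% and 14.2% of all 33469 promoters of that length. A match describes the letters only.

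Pcolce was measured by 2 probes that followed each other (Pearson r = 0.95 over the 16 pools). On probe GE20604 its level was 6.42 and 10.1 in SHAM at 4 h. In the other 4 h pools it was 0.19 and 0.31 in TBI+MT, 0.20 and 0.28 in TBI+CB, and 0.13 and 0.40 in TBI. So both SHAM pools were bright at 4 h and all 6 injured pools were dim, none of them above background on both arrays (levels were floored at 0.1). At 24 h the level was 1.33 and 0.18 in TBI+MT, 4.76 and 2.82 in TBI+CB, 5.44 and 0.60 in TBI, and 0.12 and 0.50 in SHAM. Here no array of SHAM, of TBI+MT or of TBI pool 2 was above background, and the 2 TBI pools differed widely from each other. Probe GE1167751 gave 3.78 and 5.90 in SHAM at 4 h, with 0.24, 0.19, 0.13, 0.17, 0.11 and 0.10 in the 6 injured pools of that time in the same group order. At 24 h it gave 0.53 and 0.23 in TBI+MT, 2.77 and 1.00 in TBI+CB, 3.76 and 0.63 in TBI, and 0.20 and 0.26 in SHAM.

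Tnc, the gene of tenascin-C, followed another course. At 4 h its level was 0.52 and 0.10 in TBI+MT, 2.88 and 2.30 in TBI+CB, 0.12 and 0.30 in TBI, and 2.31 and 1.12 in SHAM. It was therefore above background in both TBI+CB and both SHAM pools and in none of the TBI+MT or TBI pools. At 24 h it was 2.45 and 2.78 in TBI+MT, 5.44 and 1.83 in TBI+CB, 7.54 and 8.03 in TBI, and 0.10 and 1.2 in SHAM. The 2 TBI pools were the brightest of all 16, and the 2 drug groups lay between TBI and SHAM.

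**Figure D2:**
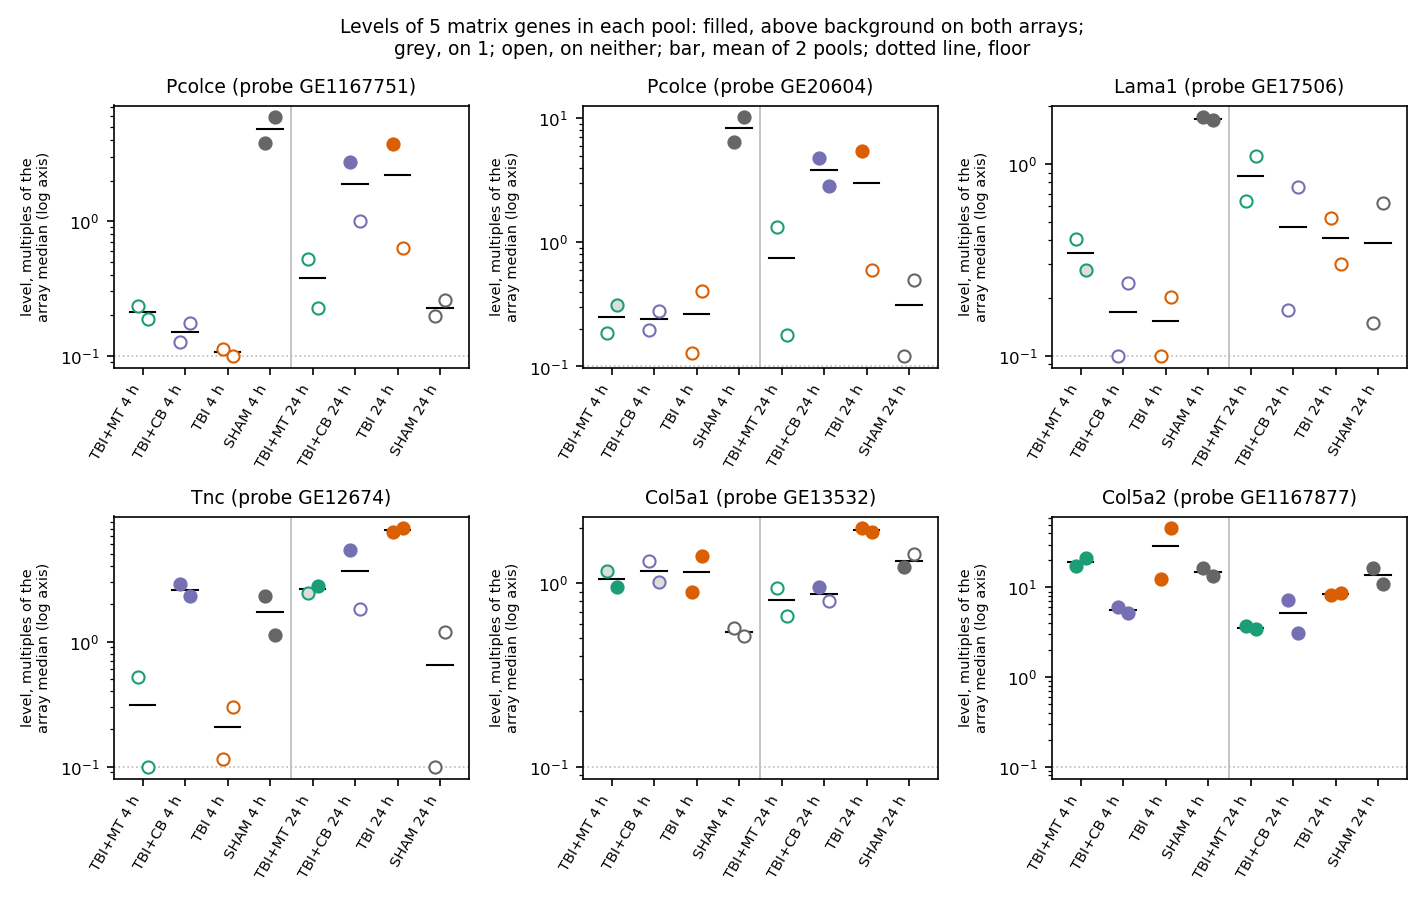
Level of Pcolce (2 probes), Lama1, Tnc, Col5a1 and Col5a2 in each of 16 pools, in multiples of the array median on a log axis, with TBI+MT, TBI+CB, TBI and SHAM at 4 h and then at 24 h. Pcolce and Lama1 were bright in both SHAM 4 h pools, and Tnc in both TBI 24 h pools (7.54 and 8.03).

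Among the laminins, Lama1, an alpha chain of early and of pial basement membranes, was seen mainly in 1 group. Its level at 4 h was 1.75 and 1.68 in SHAM, against 0.41 and 0.28 in TBI+MT, 0.10 and 0.24 in TBI+CB, and 0.10 and 0.20 in TBI. At 24 h the 8 pools lay between 0.15 and 1.09, none of them above background. Lamc1, the gamma chain of most laminins, was above background on all arrays, with levels between 4.37 and 33.7. Its highest pools were the 2 of TBI at 4 h (24.3 and 33.7, against 16.1 and 16.1 in SHAM) and its lowest was the dim pool 2 of TBI+CB at 24 h. Lamb1, a beta chain that partners Lamc1, ranged from 0.92 to 17.0, and both extremes were at 24 h, in TBI+MT pool 1 and in TBI+CB pool 1. Lama5, an alpha chain of mature vessel basement membranes, was 3.14 and 4.63 in TBI at 4 h, and between 1.62 and 2.73 in the other 6 pools of that time. Lamb3 kept between 1.67 and 5.29, and Lama4, an endothelial alpha chain, reached no more than 1.94.

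Col1a1 and Col1a2 encode the 2 chains of type I collagen, and their levels, 18.9 to 65.1 and 16.9 to 41.8, went up and down together over the 16 pools (r = 0.72). Col1a1 was 33.2 and 43.2 in TBI against 18.9 and 46.7 in SHAM at 4 h, where the groups overlapped, and 60.5 and 65.1 in TBI against 31.2 and 54.6 in SHAM at 24 h, where they did not. The 2 genes of type V collagen, which regulates fibril diameter, did not track each other (r = 0.15). Col5a2 was 17.2 and 21.4 in TBI+MT, 6.04 and 5.23 in TBI+CB, 12.6 and 45.5 in TBI, and 16.3 and 13.4 in SHAM at 4 h. At 24 h it was 3.72 and 3.40 in TBI+MT, 7.22 and 3.09 in TBI+CB, 8.31 and 8.70 in TBI, and 16.3 and 11.03 in SHAM. The SHAM pools at 24 h were thus the highest of that time, followed by TBI, and the 4 drug-treated pools were the lowest. Col5a1 stayed between 0.52 and 1.99, with the 2 lowest pools in SHAM at 4 h and the 2 highest in TBI at 24 h. Col24a1 and Col27a1, 2 minor fibrillar collagens, were above background on 16 and 14 arrays. Col24a1 was 3.39 and 2.70 in TBI+MT, 0.35 and 0.26 in TBI+CB, 6.82 and 0.50 in TBI, and 1.59 and 2.93 in SHAM at 4 h.

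Of the network and associated collagens, Col4a1, a type IV chain, was between 9.97 and 39.4. Its 2 highest pools were those of TBI+MT at 4 h (39.4 and 37.1) and its lowest was pool 2 of TBI at 4 h (23.5 in pool 1). Col9a2, which decorates type II fibrils in cartilage, was also highest in TBI+MT at 4 h, at 19.9 and 21.9, against 6.19 and 9.62 in TBI+CB and 11.8 and 5.64 in TBI. Col6a1 and Col6a3 encode chains of 1 microfibrillar collagen, and their levels did not track each other (r = -0.30 over 16 pools, a description only). Col6a1 was highest in TBI at 24 h, at 11.4 and 10.7, with the other 14 pools between 3.97 and 8.86. Col6a3 was 2.14 and 16.5 in TBI at 4 h, and 2.25 and 3.11 in TBI against 0.13 and 0.53 in SHAM at 24 h. Col14a1, Col5a3, Col8a2 and Col4a5 spanned 6.60 to 18.2, 1.40 to 5.91, 0.58 to 2.95, and 0.15 to 9.73.

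Itga7, a laminin receptor subunit of muscle that also occurs in brain, was bright in every pool, between 24.9 and 63.0. Itga2b, the platelet fibrinogen receptor subunit, lay between 1.6 and 3.41, with its 2 highest pools in TBI at 24 h (3.41 and 3.35). Itga11 (2.51 to 4.58), Itgae (1.08 to 7.68) and Itgb4 (0.71 to 2.26) had no group whose 2 pools were both above or both below the other 14. Itga1, a collagen receptor subunit, had 0.27 and 0.70 in TBI at 24 h, against 3.42 and 1.82 in SHAM. Fn1 lay between 0.36 and 3.98, with 2.50 and 2.60 in TBI against 0.85 and 1.91 in SHAM at 4 h. Sparc, a collagen-binding glycoprotein of astrocytes and vessels, was 17.3 and 23.8 in TBI+MT, 29.3 and 25.2 in TBI+CB, 33.2 and 31.9 in TBI, and 52.7 and 62.6 in SHAM at 4 h. At 24 h Sparc was between 27.7 and 69.2, and the TBI and SHAM pools overlapped.

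**Figure D3:**
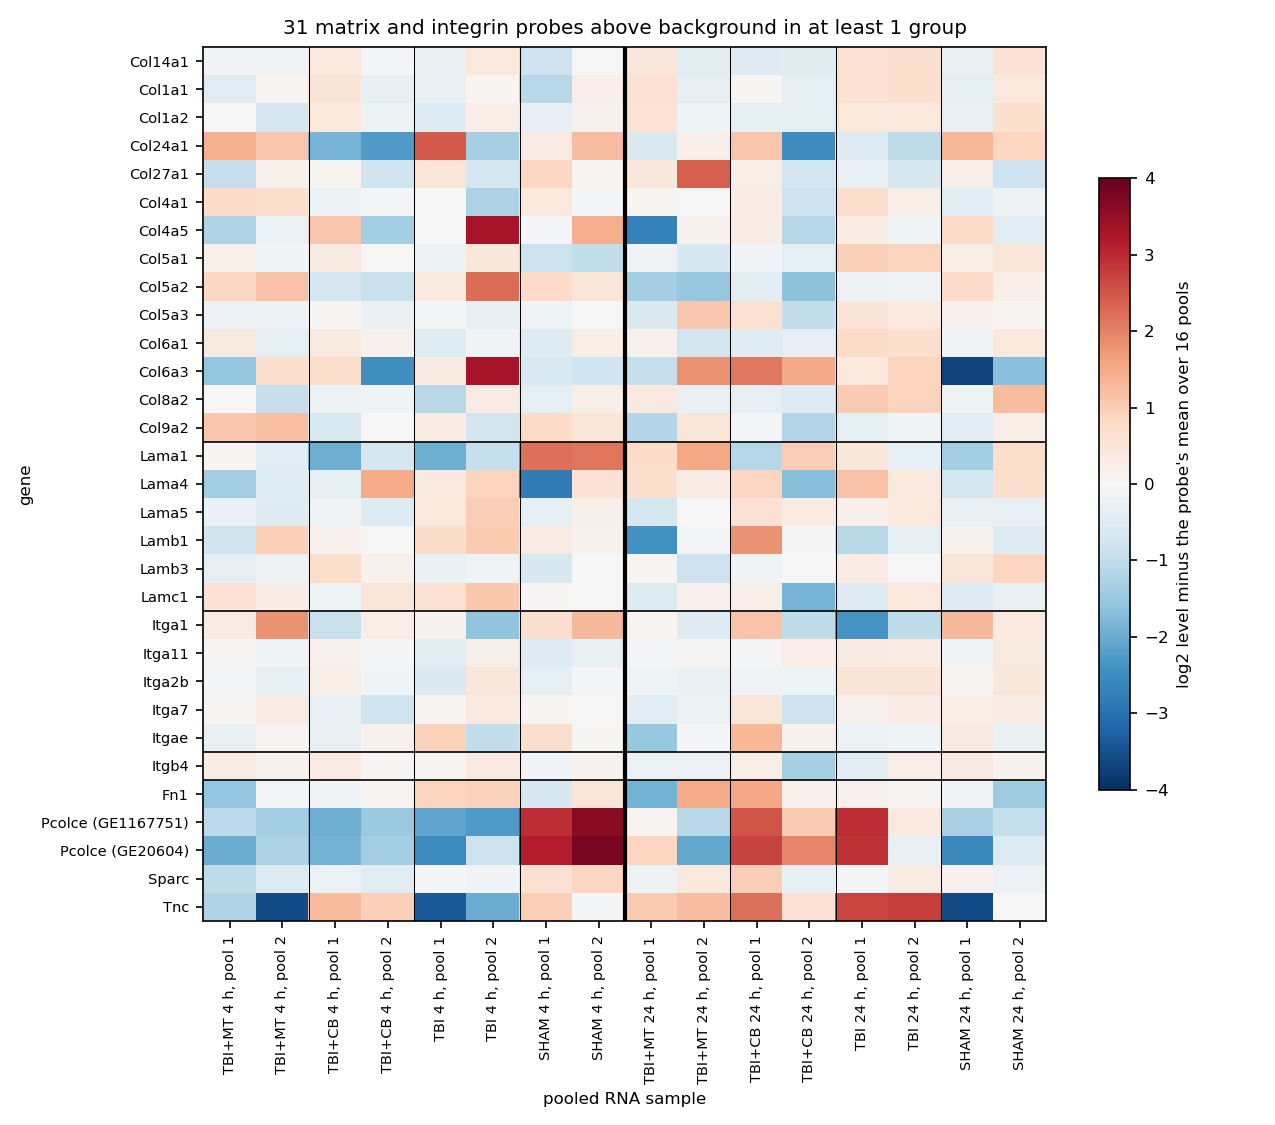
Log2 level of each of the 31 kept probes (rows, by gene class) in each of the 16 pools (columns, 4 h left of the thick line and 24 h right of it), minus the probe's own mean over the pools; red is higher and blue lower, on a scale cut at 4. Pcolce, Lama1 and Tnc have the strongest group patterns, whereas single bright pools are seen for Col4a5 and Col6a3 in TBI 4 h pool 2 (9.73 and 16.5).

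The first question was what injury did at 4 h. Pcolce and Lama1 were lower in TBI than in SHAM, and so was Tnc, while Col5a1 was higher. In all 4 genes the TBI pools did not overlap the SHAM pools. With 2 pools against 2 non-overlap is common, and these genes were named for a small p. Its share over all probes is not given, so here and below it is a description only. None of the differences passed the test after adjustment over all probes. Pcolce averaged 0.106 ± 0.00805 in TBI and 4.84 ± 1.5 in SHAM on probe GE1167751 (SD, n = 2 pools each), a log2 difference of -5.48 (SE 0.79; limma, adjusted p = 0.0950), and 0.266 ± 0.195 against 8.28 ± 2.63 on GE20604, a log2 difference of -5.15 (SE 1.14, adjusted p = 0.750). The TBI pools of GE1167751 lay at or near the floor of 0.1, which narrows their SD and lowers the SE. Because no TBI array was above background for Pcolce, the level was at least 7.87-fold lower in TBI by the first probe and at least 13.4-fold lower by the second. These bounds set the bright group's mean against the lowest signal above background on each dim array, or the dim probe's own signal where higher. That lowest signal is the lowest of any probe, and the bright group's mean can include a pool that was not above background. Here and below, "at least" is therefore a nominal bound on the group means and not a strict minimum. Lama1 was at least 2.86-fold lower in TBI (log2 difference -3.59, SE 0.84, adjusted p = 0.750) and Tnc at least 2.68-fold lower (-3.11, SE 1.08, adjusted p = 0.936). Col5a1 was at least 1.55-fold higher in TBI (1.05, SE 0.44, adjusted p = 0.936), since no SHAM array was above background.

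Of the 31 kept members, 5 probes reached an unadjusted p under 0.05 at 4 h in TBI against SHAM, where 3.34% of 17613 probes did, and 0 passed the adjusted threshold of 0.05, as did 0% of all probes. Pcolce GE1167751 and Lama1 passed the background filter only through SHAM at 4 h, and Col5a1 only through the TBI groups. Since these groups are the ones compared, the count of 5 is no support for a difference in the members. With the 4 groups of 4 h fitted alone, Pcolce GE1167751 passed (adjusted p = 0.0302). Changes over 2-fold were found in 3 members higher and 5 lower, where 15.9% and 7.35% of all probes lay. Without TBI 4 h pool 1 the number of members over 2-fold was 18 in place of 8, and the number of all probes called was 47 in place of 0, with 0 members among them. The median log2 difference of the members was 0.10, against 0.33 for all probes, and it was -0.29 for the members under quantile normalisation, against 0.03 for all probes, so the group as a whole has no settled direction. Within the slide run shared with SHAM, which holds only TBI 4 h pool 1, the log2 differences of Pcolce (-5.41 and -5.98), Lama1 (-4.10), Tnc (-3.80) and Col5a1 (0.72) kept their sign, with an adjusted p of 1.00 for each.

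Some other genes stood high in the SHAM 4 h pools as Pcolce and Lama1 did. Lox, which crosslinks collagen, was 0.83 and 0.38 in TBI and 3.87 and 2.95 in SHAM at 4 h, whereas the other 5 of 6 measured genes of collagen folding and crosslinking had higher means in TBI (list median 0.07). The endothelial receptor Tek was 0.92 and 0.29 against 4.83 and 7.73, and Aldh1a2 was 0.62 and 0.46 against 2.06 and 1.64. The endothelial and pericyte list as a whole had higher means in TBI for 3 of 9 measured markers and lower means for 6, with summed levels of 55.3 and 60.7 in TBI and 48.2 and 101 in SHAM. Of all 17613 probes, 12168 had higher means in TBI. The part of endothelial cells and pericytes in the differences was not tested.

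At 24 h the TBI pools were above the SHAM pools for Tnc, Pcolce and Col6a3, and below them for Itga1. Tnc averaged 7.78 ± 0.347 in TBI and 0.650 ± 0.778 in SHAM. With no SHAM array above background, that is at least 6.97-fold higher in TBI (log2 difference 4.49, SE 1.08, adjusted p = 0.984). Col6a3 was at least 2.37-fold higher (3.34, SE 1.28) and Pcolce at least 1.38-fold on GE1167751 (2.77, SE 0.79) and 1.62-fold on GE20604 (2.87, SE 1.14), where TBI pool 1 alone was above background. Itga1 was at least 2.15-fold lower in TBI (-2.52, SE 0.87). The adjusted p of Col6a3, Itga1 and both Pcolce probes was 1.00.

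These 5 probes were the members with an unadjusted p under 0.05 in TBI against SHAM at 24 h, where 1.84% of 17618 probes had one, and 0 members and 0% of probes passed after adjustment. Members over 2-fold numbered 4 higher and 2 lower, beside 4.09% and 6.71% of all probes. Without SHAM 24 h pool 2 the members over 2-fold were 10 in place of 6. The median member was 0.34 higher on the log2 scale, or 0.31 with quantile normalisation, against 0.01 and 0.05 for all probes. All 5 probes of Pcolce, Fn1, Tnc and Sparc had higher means in TBI, as did 8984 of 17618 probes in all. In the same comparison 7 of 7 measured microglial markers had a higher mean in TBI, with summed levels of 145 and 128 in TBI and 34.2 and 66.1 in SHAM. Of 6 astrocyte markers 2 were higher and 4 lower, and the filament gene Gfap was 33.5 and 39.4 in TBI and 2.63 and 5.10 in SHAM. The part of these cells in the matrix values was not tested.

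The injury difference was therefore opposite in sign at the 2 times for Pcolce and Tnc. The 24 h difference minus the 4 h difference was 8.26 (SE 1.12, adjusted p = 0.154) and 8.02 (SE 1.61, adjusted p = 0.741) on the log2 scale for the 2 Pcolce probes, and 7.60 (SE 1.53, adjusted p = 0.741) for Tnc. These fitted values depend on the floor, since neither TBI at 4 h nor SHAM at 24 h was above background, and with a floor of 0.02 Pcolce GE1167751 gave 10.2. The nominal bounds at the 2 times add up to differences of 3.44 and 4.44 for the Pcolce probes and 4.22 for Tnc. For Pcolce the 24 h bound averages TBI pool 1 with TBI pool 2, which was not above background, so the sum is no strict minimum. Pcolce GE1167751 had the smallest p of all 17596 probes in this test. It was kept only through SHAM at 4 h, a group that the test uses. Among the members 4 had an unadjusted p under 0.05, against 2.35% of all probes, and 0 passed adjustment (0% of probes). Leaving out TBI 24 h pool 2, the pool in which Pcolce was dim, gave 9.55 for Pcolce GE1167751, from 1 TBI pool at 24 h. The SHAM groups of the 2 times lie in different slide runs, so run is mixed into this difference. With the slide run as a term it was 8.18 and 8.85 for the Pcolce probes and 8.28 for Tnc. That term rests on the 2 TBI pools of 4 h, which were in different runs. Each time had its own SHAM group, and the 2 SHAM groups differed for Pcolce, with 6.42 and 10.1 at 4 h and 0.12 and 0.50 at 24 h on GE20604.

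**Figure D4:**
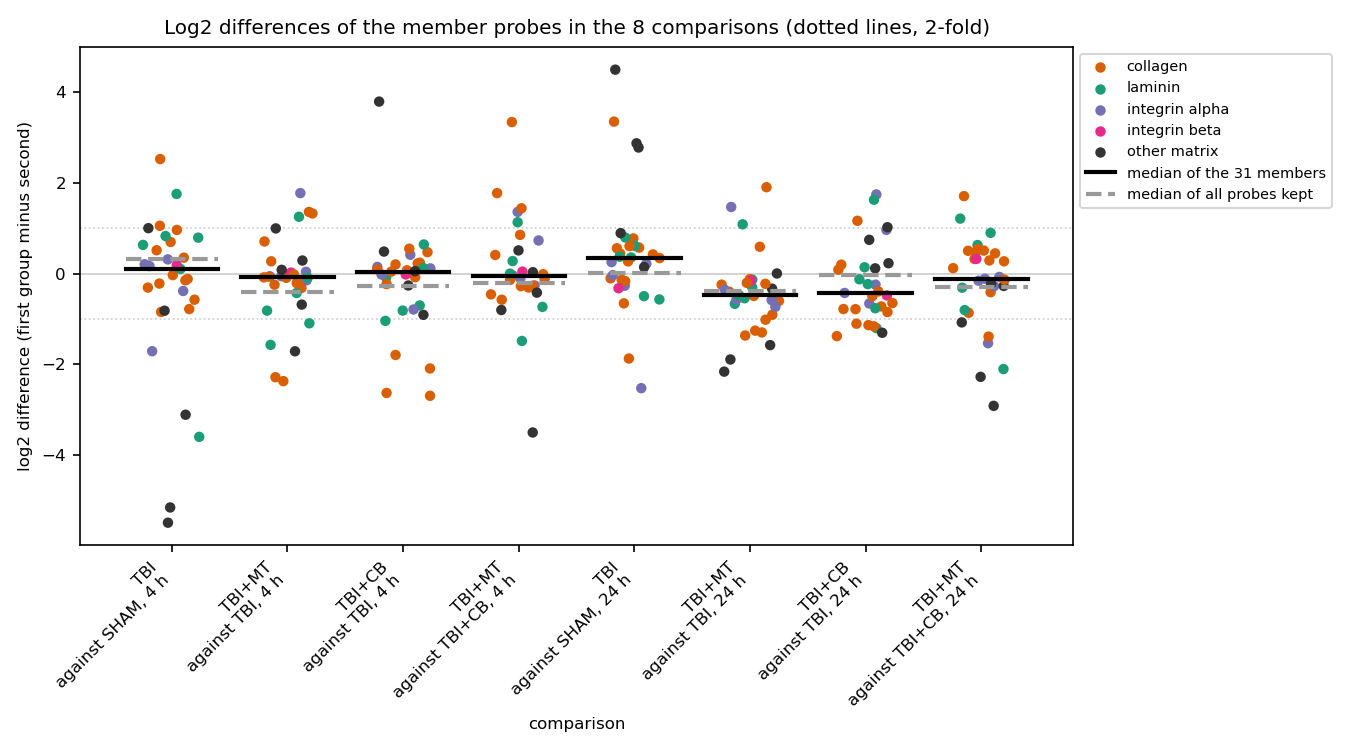
Log2 differences (vertical axis) of the 31 kept probes in the 8 comparisons (horizontal axis), coloured by gene class, with the median of the members as a black line and that of all kept probes as a dashed grey line. Most points lie within 2-fold of 0 (dotted lines), and the widest are Pcolce in TBI against SHAM at 4 h (-5.48) and Tnc at 24 h (4.49).

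The drug groups were each set against TBI of the same time, so the 2 drug comparisons share their TBI pools, and the TBI pools are also those compared with SHAM. In TBI+MT against TBI at 4 h, the members with the smallest p were Col4a1 and Col9a2, with higher means, and Lama5, with a lower one, and their number was close to the background share. Col4a1 averaged 38.3 ± 1.66 in TBI+MT and 16.7 ± 9.54 in TBI (log2 difference 1.32, SE 0.54), Lama5 1.79 ± 0.200 against 3.89 ± 1.06 (-1.10, SE 0.46), and Col9a2 20.9 ± 1.37 against 8.72 ± 4.36 (1.36, SE 0.64), with adjusted p = 0.736 for each. For all 3 genes the pools of the 2 groups did not overlap. Col4a1 and Lama5 had an unadjusted p under 0.05, against 4.73% of all probes, and 0 members and 0% of probes passed adjustment. Over 2-fold were 4 members higher and 5 lower, beside 8.21% and 25.1% of probes, and without TBI 4 h pool 2 there were 5 in place of 9. The median member was at -0.08 (0.17 with quantile normalisation), against -0.40 (-0.01) for all probes. All 6 astrocyte markers and 6 of 9 endothelial and pericyte markers were also lower in mean in TBI+MT, as were 12405 of 17619 probes. The part of these cells was not tested. Within the slide run of both groups, which leaves out TBI 4 h pool 1, the differences of Col4a1, Lama5 and Col9a2 were 1.94, -1.38 and 1.89 (adjusted p = 0.255, 0.376 and 0.379), and 49 probes, 0 of them members, were called in that fit.

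Carbenoxolone at 4 h went with higher Tnc and with lower Col5a2, Lama5 and Col24a1. Tnc averaged 2.59 ± 0.404 in TBI+CB and 0.208 ± 0.131 in TBI, at least 4.29-fold higher (log2 difference 3.79, SE 1.08). Col5a2 averaged 5.64 ± 0.568 against 29.0 ± 23.3 (-2.09, SE 0.62), Lama5 1.87 ± 0.345 against 3.89 ± 1.06 (-1.04, SE 0.46), and Col24a1 was nominally at least 1.79-fold lower (-2.63, SE 1.17). For Col24a1, TBI pool 2 was not above background, and the bound does not hold without TBI pool 1. The adjusted p was 0.957 for each of the 4. In each of them the pools did not overlap, although the TBI pools of Col5a2 (12.6 and 45.5) and Col24a1 (6.82 and 0.50) were far apart, and without TBI 4 h pool 1, which is also the comparison within 1 slide run, the Col24a1 difference was -0.75. These were all the members with an unadjusted p under 0.05, against 3.44% of probes, and 0 members and 0% of probes passed adjustment. Over 2-fold were 1 member higher and 5 lower, beside 4.55% and 15.9% of probes. Of 9 endothelial and pericyte markers 3 were higher and 6 lower in TBI+CB (median -0.77), where 11146 of 17619 probes were lower. The pericyte receptor Pdgfrb was 1.99 and 1.51 in TBI+CB and 0.27 and 0.25 in TBI. The smooth muscle myosin Myh11 was 0.38 and 2.81 in TBI+CB and 10.5 and 33.3 in TBI. The part of these cells was not tested. The median member was at 0.04 (0.15 with quantile normalisation), against -0.28 (0.01) for all probes.

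At 4 h the 2 drugs differed from each other in Tnc, Col5a2, Col24a1 and Col9a2, all from the same slide run. Tnc averaged 0.309 ± 0.296 in TBI+MT and 2.59 ± 0.404 in TBI+CB, at least 4.42-fold lower with metyrapone (log2 difference -3.50, SE 1.08). Col5a2 averaged 19.3 ± 3.01 against 5.64 ± 0.568 (1.77, SE 0.62), Col24a1 was at least 2.93-fold higher (3.33, SE 1.17), and Col9a2 averaged 20.9 ± 1.37 against 7.90 ± 2.42 (1.44, SE 0.64). None passed adjustment (adjusted p = 0.999 for each), and the pools of the 2 groups did not overlap in any of the 4. The unadjusted p was under 0.05 for these 4 members, against 3.11% of probes, with 0 members and 0% of probes called after adjustment. Over 2-fold were 5 members higher and 2 lower, beside 8.25% and 5.32% of probes, and the medians were -0.05 for the members and -0.20 for all probes.

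At 24 h, 26 of the 31 members had a lower mean in TBI+MT than in TBI, as did 13018 of 17593 probes. Col5a1 averaged 0.805 ± 0.199 in TBI+MT and 1.95 ± 0.056 in TBI, at least 1.48-fold lower (log2 difference -1.30, SE 0.44, adjusted p = 0.774). Pcolce GE1167751 was at least 1.17-fold lower (-2.16, SE 0.79, adjusted p = 0.836) and Col27a1 at least 2.48-fold higher (1.90, SE 0.75, adjusted p = 0.848). Col27a1 was above background in only 1 of the 2 TBI+MT pools (5.61, with 1.47 in the other). The 3 were the members with an unadjusted p under 0.05, beside 5.51% of probes, and 0 members and 0% of probes passed adjustment. Over 2-fold were 3 members higher and 7 lower, beside 5.5% and 13.8% of probes, and without TBI 24 h pool 1 they were 6 in place of 10. The median member was at -0.48 (-0.32 with quantile normalisation), against -0.39 (-0.23) for all probes. Of 9 endothelial and pericyte markers, 8 had a lower mean in TBI+MT than in TBI at 24 h. In TBI+CB 8 had one too, where 9034 of 17597 probes were lower. The part of these cells was not tested. Both drug groups of 24 h were in a slide run of their own, so run and drug cannot be told apart at this time.

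In TBI+CB at 24 h, 3 members had an unadjusted p under 0.05 against TBI, a share close to the 8.22% of all probes, and 0 members and 0% of probes passed adjustment. All 3 were collagen genes with lower levels. Col5a1 averaged 0.874 ± 0.111 in TBI+CB and 1.95 ± 0.056 in TBI (log2 difference -1.16, SE 0.44), Col6a1 5.03 ± 0.362 against 11.04 ± 0.490 (-1.14, SE 0.50), and Col8a2, a chain of endothelial and corneal basement membranes, 0.942 ± 0.0762 against 2.45 ± 0.140 (-1.38, SE 0.63). The SDs were small and the pools did not overlap, in members that were named for a small p, and the adjusted p was 0.592 for each. Over 2-fold were 4 members higher and 6 lower, beside 14.3% and 15.2% of probes. Of the 14 collagen probes 11 were lower in TBI+CB, as were 9034 of 17597 probes in all. The median member was at -0.43 (-0.52 with quantile normalisation), against -0.04 (-0.08) for all probes, but it was 0.15 without the dim TBI+CB 24 h pool 2. Without TBI+CB 24 h pool 1, 15 probes were called in place of 0, and 0 of them were members.

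Between the drugs at 24 h, the means of Pcolce and Lamb1 were lower and that of Col27a1 higher with metyrapone. Pcolce was at least 1.27-fold lower in TBI+MT than in TBI+CB on GE1167751 (log2 difference -2.27, SE 0.79) and at least 2.78-fold on GE20604 (-2.91, SE 1.14). Lamb1 averaged 2.84 ± 2.70 against 10.9 ± 8.69 (-2.10, SE 0.84) and Col27a1 3.54 ± 2.92 against 0.934 ± 0.436 (1.70, SE 0.75). Here the pools of a group differed several-fold, and the adjusted p was 0.786 for each. The unadjusted p was under 0.05 for these 4 probes and for 5.07% of all, with 0 members and 0% of probes called. Over 2-fold were 2 members higher and 6 lower, beside 7.25% and 22.4% of probes, and without TBI+CB 24 h pool 2 there were 13 in place of 8. The median member was at -0.11 (0.12 with quantile normalisation), against -0.29 (-0.11) for all probes.

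For the drugs, the differences between the times were also tested. For TBI+CB against TBI, the 24 h difference minus the 4 h difference was -5.09 for Tnc (SE 1.53), -1.68 for Col6a1 (SE 0.71) and 3.85 for Col6a3 (SE 1.82), with adjusted p = 0.574 for each. For TBI+MT against TBI it was -3.15 for Pcolce GE1167751 (SE 1.12), -1.73 for Col4a1 (SE 0.76) and 2.15 for Col27a1 (SE 1.06), with adjusted p = 0.980 for each. Among the members 2 had an unadjusted p under 0.05 in each of these tests, against 7.75% of probes for carbenoxolone and 4.67% for metyrapone, and 0 members and 0% of probes passed. In the F test over all 8 groups, Pcolce GE1167751 led the members (F = 12.6, adjusted p = 0.271), followed by Tnc (F = 6.88, adjusted p = 0.553) and Pcolce GE20604 (F = 6.61, adjusted p = 0.590). Of the 31 members 6 had an unadjusted p under 0.05, against 5.54% of 17570 probes, and 0 members and 0% of probes passed.

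The size rule of the methods requires the 4 arrays of each compared group to lie within 2-fold of each other and counts differences over 2-fold without a test. By it, 1 of 12 qualifying members differed between TBI and SHAM at 4 h (Pcolce GE1167751, where 12.8% of probes differed) and 0 of 15 at 24 h (3.13%). For TBI+MT against TBI it was 1 of 11 at 4 h (Lama5; 6.68%) and 2 of 7 at 24 h (Col5a2 and Tnc, both lower; 12.8%). For TBI+CB against TBI it was 1 of 13 at 4 h (Lama5; 9.91%) and 5 of 11 at 24 h (Col14a1, Col5a1, Col6a1 and Col8a2 lower, Col6a3 higher; 27.2%). Between the drugs it was 2 of 18 at 4 h (Col5a2 and Col9a2, both higher in TBI+MT; 4.82%) and 0 of 2 at 24 h (6.84%). Pcolce GE1167751 lay at or near the floor of 0.1 in the TBI pools of 4 h, which keeps those arrays within 2-fold.

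The genes most like the named members over the 16 pools are given as a description. Lama1 was nearest to both Pcolce probes (r = 0.62 and 0.60), and Pcolce to Tnc (r = 0.54). Col5a1 was nearest to Itga2b (r = 0.79), Col6a3 to Lama5 (r = 0.71) and Itga1 to Col24a1 (r = 0.61). These values share the division by the array median. When each of the 31 probes was set against that median over the 16 pools (permutation test with 100000 resamples, two-sided, Benjamini-Hochberg over the 31), Lamb1 rose with it (r = 0.73, p = 0.00131, adjusted p = 0.0406; Spearman rho = 0.79, p = 0.00049, adjusted p = 0.0152; r = 0.73 without the 2 farthest pools) and Col1a2 fell with it (r = -0.70, p = 0.00274, adjusted p = 0.0425; rho = -0.64, p = 0.00879, adjusted p = 0.0681; r = -0.52). Within the slide run of 9 pools r was 0.67 for Lamb1 and -0.89 for Col1a2. For the 2 Pcolce probes r over all pools was -0.12 (adjusted p = 0.720) and -0.07 (adjusted p = 0.832). Because the median is also the divisor of each level, a raw signal that did not scale with it would give a negative r. The permutation also ignored the 8 groups and the 3 slide runs. These correlations and their p-values are therefore a description only.

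Of the wider matrix pathway, 36 of 66 listed genes had a kept probe, counted once per gene, and 0 were called in any of the 8 comparisons by limma. Among the proteases and inhibitors, in TBI against SHAM at 24 h, 7 of 7 were higher, 5 of them over 2-fold, with a median log2 difference of 1.28, against 0.01 for all probes. Of all 17618 probes, 8984 were higher and 4.09% were over 2-fold higher. Timp1, an inhibitor of matrix metalloproteinases, led the 7 genes with 67.2 and 79.2 in TBI and 3.46 and 24.0 in SHAM (log2 difference 3.00, SE 0.84, adjusted p = 1.00). In TBI+MT against TBI at 4 h, 7 of 7 were lower, 4 of them over 2-fold (median -1.05, against -0.40 for all probes). Of all 17619 probes, 12405 were lower there and 25.1% were over 2-fold lower. In TBI+CB against TBI at 4 h, 6 of the 7 proteases and inhibitors were lower (median -0.70, against -0.28), as were 11146 of 17619 probes. At 24 h in TBI+CB against TBI 3 were higher and 4 lower (median -0.46, against -0.04). The genes of collagen folding and crosslinking were lower in 6 of 6 cases in TBI+CB against TBI at 4 h (median -0.43), as were 6 of 6 other matrix glycoproteins (median -0.46). There 11146 of 17619 probes were lower. Collagen folding was also lower in 6 of 6 cases in TBI+MT against TBI+CB at 24 h (median -0.35, against -0.29 for all probes), where 10934 of 17609 probes were lower. The brain proteoglycan gene Vcan, of the basement membrane and proteoglycan list, was 0.18 and 0.35 in TBI+MT, 0.37 and 0.22 in TBI+CB, 0.76 and 3.82 in TBI, and 0.20 and 0.44 in SHAM at 4 h. Of the 11 measured genes of integrin adhesion, 8 had a higher and 3 a lower mean in TBI than in SHAM at 4 h (median 0.37), where 12168 of all 17613 probes were higher (median 0.33). In TBI+MT against TBI at 4 h 3 were higher and 8 lower (median -0.44), where 12405 of 17619 probes were lower (median -0.40). In TBI+CB against TBI at 24 h 3 were higher and 8 lower (median -0.50), where 9034 of 17597 probes were lower (median -0.04), and Src (-1.22, SE 0.49) and the integrin activator Tln1 (-1.78, SE 0.77) had an unadjusted p under 0.05.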

How the data were processed

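CA3 neuron RNA was amplified in 2 rounds and hybridised by the authors to CodeLink rat arrays, with 2 pools per group and 2 arrays per pool (32 arrays). The deposited files hold the spot intensity that the scanner software gave, and values below 0 imply that local background had been subtracted. Per the file headers, each array has a median, and the table of processed values from the authors is the intensity over that median times a factor between 1.01 and 1.03. Intensities were divided by the array median, floored at 0.1 of it and taken to log2. Masked and irregular spots were left out, duplicate arrays averaged, and probes retained where all 4 arrays of some group read above background. The platform annotation names 1 gene for 16878 probes, and 8 probes of several genes that include a member stayed unnamed. Differences were tested with limma 3.58.1 in R 4.3.3 over all 16 pools (8 residual and 3.88 prior degrees of freedom), with Benjamini-Hochberg adjustment over all kept probes, a threshold of 0.05, and a check on simulated data. Permutations and motif searches used numpy, pandas and scipy. Named members are those with an unadjusted p under 0.05 in a comparison, or the 3 smallest p where fewer had one, and the 3 smallest p in the F test and between times. Where a listed matrix or marker gene has several kept probes, the one with the highest mean stands for it. The number of pools and arrays limits the precision. The members, lists and rules were chosen with earlier results of these data known.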

Additional observations from a re-analysis of the deposited data

Results flagged for a closer look

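For 7 differences of named members both pools of a group lay on one side of the compared group at 4 h and on the other side at 24 h. The share of all probes that did so was not counted. None of the differences between the times passed the test after adjustment (limma), and their cause was not tested. In TBI against SHAM, the 24 h difference minus the 4 h difference was 8.26 on the log2 scale for Pcolce GE1167751 (SE 1.12, adjusted p = 0.154), 8.02 for Pcolce GE20604 (SE 1.61, adjusted p = 0.741) and 7.60 for Tnc (SE 1.53, adjusted p = 0.741). TBI at 4 h and SHAM at 24 h were not above background for these probes, so the values depend on the floor (10.2 for Pcolce GE1167751 with a floor of 0.02). The nominal bounds add up to 3.44, 4.44 and 4.22 in the same order. For Pcolce they include TBI 24 h pool 2, which was not above background. In TBI+MT against TBI it was -1.73 for Col4a1 (SE 0.76, adjusted p = 0.980) and -3.15 for Pcolce GE1167751 (SE 1.12, adjusted p = 0.980), which was above background in neither group at 4 h. In TBI+CB against TBI it was -1.68 for Col6a1 (SE 0.71, adjusted p = 0.574) and -5.09 for Tnc (SE 1.53, adjusted p = 0.574), which was not above background in TBI at 4 h. The drug and injury comparisons share the TBI pools.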

How the results depend on the processing

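Over 33 alternatives, 16 of which left out 1 pool, none of 812 values of named members took the opposite sign. That was largely set beforehand and is no support. The F values among them have no sign, and the members were named for a small p in these same pools. Of the 812 values 3 passed the threshold, all of Pcolce GE1167751. One was TBI against SHAM at 4 h with the 4 groups of that time alone (-5.48, adjusted p = 0.0302). The others were the difference between times with a floor of 0.02 (10.2, adjusted p = 0.0365) or without TBI 24 h pool 2 (9.55), which left 1 pool in that group. Over all alternatives the 4 h value lay between -6.87 and -3.24 (adjusted p 0.0302 to 1.00). Counts of called probes, 0 in every comparison above, and the member medians changed as follows; the cause was not tested.

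Quantile normalisation called 2 probes in TBI+CB against TBI at 24 h and 1 between times, and gave a member median of -0.29 in TBI against SHAM at 4 h. A floor of 0.02 called 1 probe, a member, between times in TBI against SHAM, and a floor of 0.5 called 1 in TBI+CB against TBI at 24 h. With all 32 arrays and the pool as a random block, calls were 1 in TBI against SHAM and 1 in TBI+CB against TBI at 4 h, and 12 in TBI against SHAM (1 of the other matrix genes), 1 in TBI+CB against TBI and 1 in TBI+MT against TBI+CB at 24 h. That fit called 2 probes between times for carbenoxolone and 70 in the F test (1 member). The first array of each pool alone called 2 probes in TBI against SHAM, 3 in TBI+MT against TBI and 1 in TBI+CB against TBI at 24 h, with 14 members over 2-fold between the drugs. The second alone called 1 in TBI against SHAM at 4 h, 4 in TBI+CB against TBI and 3 between the drugs at 24 h and 1 in the F test, with a median of -0.32 in TBI+MT against TBI at 24 h. The 4 groups of 4 h alone called 2 probes in TBI against SHAM (1 member), and a mean-variance trend 2 in TBI+CB against TBI at 24 h. The slide run as a term called 49 probes in TBI+MT against TBI (median -0.40) and 1 in TBI+CB against TBI (median -0.27) at 4 h. Leaving out the 2 dimmest pools, an alternative chosen after seeing the data, called 7 in TBI+CB against TBI at 24 h (median 0.15).

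Members over 2-fold, taken in the order TBI against SHAM, TBI+MT against TBI, TBI+CB against TBI and TBI+MT against TBI+CB, numbered 8, 9, 6 and 7 at 4 h and 6, 10, 10 and 8 at 24 h. Without a filter on dim probes they numbered 17, 14, 19 and 20, then 15, 29, 27 and 25 of 95, with medians of -0.23 between the drugs at 4 h and -0.13 in TBI+MT against TBI at 24 h. With the 11 probes above background on all arrays they numbered 0, 2, 1 and 2, then 0, 2, 2 and 0 (median between the drugs at 4 h -0.27). With the replicate rule of the methods they numbered 1, 1, 1 and 2, then 0, 2, 5 and 0.

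Leaving out each pool in turn gave ranges. At 4 h, TBI against SHAM had 0 to 47 probes called, 7 to 18 members over 2-fold and a median of -0.20 to 0.34. TBI+MT against TBI had 0 to 49 called, 5 to 11 over 2-fold and a median of -0.40 to 0.13. TBI+CB against TBI had 0 to 1 called and a median of -0.270 to -0.0240, and the median between the drugs was -0.264 to 0.0497. At 24 h, TBI against SHAM had 6 to 10 over 2-fold and a median of 0.10 to 0.45, TBI+MT against TBI 6 to 13 over 2-fold, TBI+CB against TBI 0 to 15 called and a median of -0.94 to 0.15, and the drugs 0 to 1 called and 6 to 13 over 2-fold. Between times in TBI against SHAM 0 to 1 probes were called, with 0 to 1 members. The pools behind the extremes were TBI 4 h pool 1, SHAM 4 h pool 1, TBI+CB 4 h pool 2 and SHAM 24 h pool 1, beside those named in the report.

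Pools of the same number share only that number: correlations of their deviations from the group means ran from -0.35 to 0.29. With the replicate block, Pcolce GE1167751 stayed at -5.48 at 4 h (adjusted p = 0.130) and no count of calls changed. With 2 pools per group, the share of probes above background, 27.7% in the dimmest pool, limits what low members can show.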
